A study of Drosophila melanogaster with 4 samples.

Results

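The left arm of chromosome 3, 3L, carried 556 of the 3284 peaks that were called for the protein CG8478 in S2-DRSC cells. These are a male line of Drosophila melanogaster that was derived from embryos at a late stage. The members were taken by position alone, as every peak listed on 3L, and no score or width entered the choice. The peaks come from chromatin immunoprecipitation followed by sequencing (ChIP-seq), in which formaldehyde-fixed chromatin is sheared, precipitated with an antibody and sequenced. The study made 2 ChIP libraries with KW3-CG8478-D1, a custom rabbit polyclonal antibody, and 2 libraries of unprecipitated input DNA from the same line, and the labels name no treatment, knockdown or second cell line. The deposited peak list gives a position and 1 score per peak for the whole study, with no value per library. Depth and replicate error are therefore unknown, and every interval given here covers counting error only.

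CG8478 carries a zinc finger of the type found in many sequence-specific DNA-binding proteins, and the antibody was raised against a fragment that includes it. The numbering of 3L starts at the telomere, so the first Mb is the distal tip of the arm and the highest positions lie on the side of the centromere. Fly telomeres are built from arrays of specialised retrotransposons, with repeated satellite DNA beside them. The DNA next to the centromere is rich in transposons and largely heterochromatic, and the arm between these ends is mostly gene-bearing euchromatin. All positions are on FlyBase release 5, and no peak is paired with a gene because no annotation of that release was used.

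Across the arm, the peaks ran from position 673 to position 24457945 and covered 312 kb, or 1.28% of that span. Scores ran from 5.64 to 304, and their median was 13.59, between quartiles of 10.5 and 21.3. The score is the authors' value for each peak, whose exact statistic is not given in the sources used here, and it serves only to rank and describe peaks within this list. Low scores made up most of the arm, as 401 of the 556 peaks (72.1%) scored below 20, against 67.1% of the whole list. That list also includes peaks on scaffolds outside the arms. A strong peak is used here for one with a score of 100 or more, which 2.80% of all peaks in the list reached. Among the 2938 peaks on the arms alone, 74 reached that score. On 3L 12 peaks reached it, 2.16% (Wilson 95% interval 1.24 to 3.73%), against 4.12% on X, 1.57% on 2L, 2.28% on 2R, 2.61% on 3R and none of 27 on chromosome 4. The intervals of 3L and of each of these arms overlap. Widths on 3L ran from 201 to 4908 bp, with a median of 413 bp, and medians on the other large arms lay between 390 and 427 bp.

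The density of peaks changed along the arm in broad stretches. The first 9 Mb held 330 peaks, or 36.7 per Mb (exact Poisson 95% interval 32.8 to 40.8). The stretch from 9 to 16 Mb held only 51, or 7.29 per Mb (5.42 to 9.58). From 16 to 23 Mb the density was 23.9 per Mb (20.4 to 27.8), with 167 peaks, and the remaining 8 peaks lay beyond 23 Mb. The bounds at 9, 16 and 23 Mb were drawn from the counts themselves, so the differences between these stretches are a description, and the intervals treat each peak as independent although neighbouring peaks are not. In single windows of 1 Mb the count ran from 3 to 92, with a mean of 22.96 ± 21.3 (SD, 24 whole windows). Whole windows on the other arms had 24.96 ± 21.2 (SD, 93 windows).

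**Figure D1:**
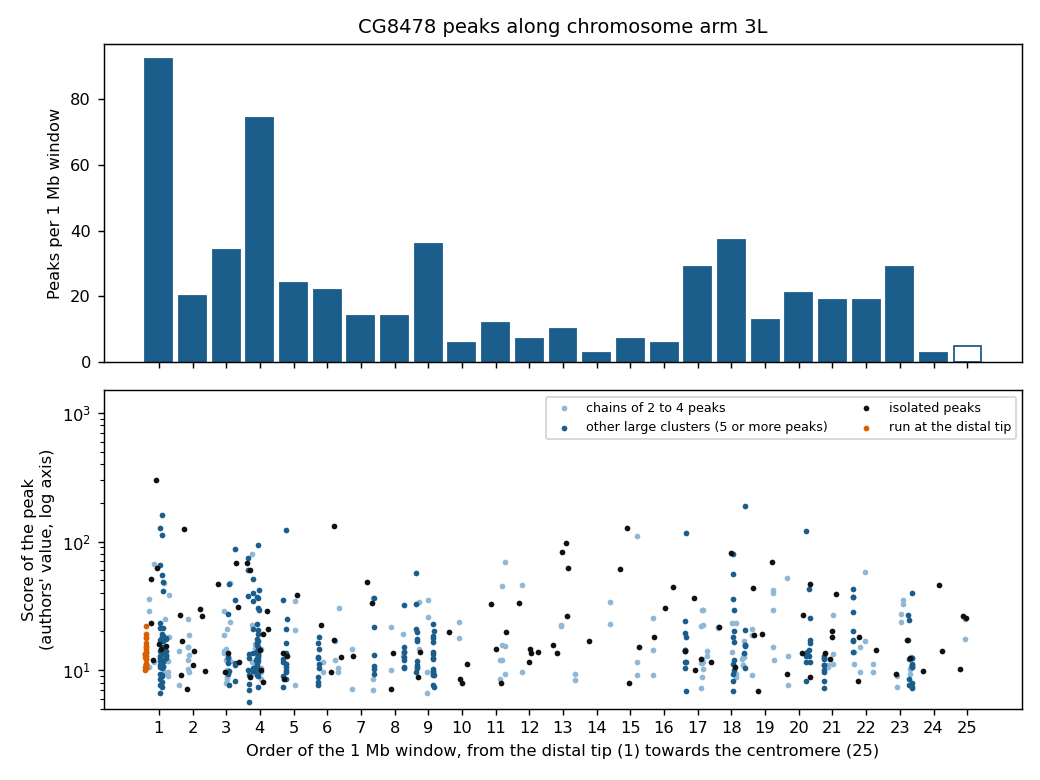
Upper panel, CG8478 peaks in each 1 Mb window of 3L, counted from the distal tip, with the incomplete last window as an open bar. Lower panel, the score of every peak (log axis) at its place within the window, coloured by the kind of chain it belongs to. The first window holds 92 peaks and the fourth 74, while the windows from the tenth to the sixteenth hold 3 to 12 each.

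The first Mb of 3L was the fullest of the 117 whole windows in the list, with 92 peaks, or 16.5% of the arm. This place depended on how finely the peaks were split and on the run at the tip. The count was 67, rank 7 among the windows, without that run, 66 and rank 4 with peaks within 200 bp merged, 41 and rank 4 with 1000 bp, and 41 and rank 2 among the higher-scoring peaks of the list. Its median score of 13.6 was level with that of the rest of the arm, also 13.6 (464 peaks). High scores were present as well, since 9 peaks of this Mb scored 50 or more and 4 of the 12 strong peaks of the arm lay in it. Taken over 1 Mb inward from the outermost peak, the distal ends of the other arms held 61 peaks on 2L, 24 on 3R, 9 on X and 5 on 2R. Chromosome 4, whose peaks span less than 1 Mb, was left out here. The count next to that of 3L was the one on 2L. Whether 3L differs from the other arms in this respect was not tested, because each arm has 1 distal end.

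Within the first Mb the peaks were divided here into 4 successive stretches of different make-up. The outermost was a run of 25 peaks between 673 and 19658. After it came 108 kb with no peak. Between 128133 and 506338 followed 11 peaks with a median score of 28.8, of which 6 had no neighbour within 10 kb and 5 lay in a chain of 3 and a chain of 2. From 530943 to 654911 lay 39 peaks, with a median score of 13.4 and a maximum of 160. Of these, 38 lay in chains of 15 and 23, and 1 stood alone between the chains, 16057 bp from the nearer. The last 17 peaks, from 682054 to 872597, had a median of 13.5 and none above 47.9. Beyond them 134 kb were empty, so that the tenth window of 100 kb held no peak. The second of these stretches had the highest median score. Because the bounds were drawn from the peak positions themselves, this is a description. Some gaps inside stretches were longer than some between them. Over the whole Mb, the 8 isolated peaks had a median of 19.58.

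**Figure D2:**
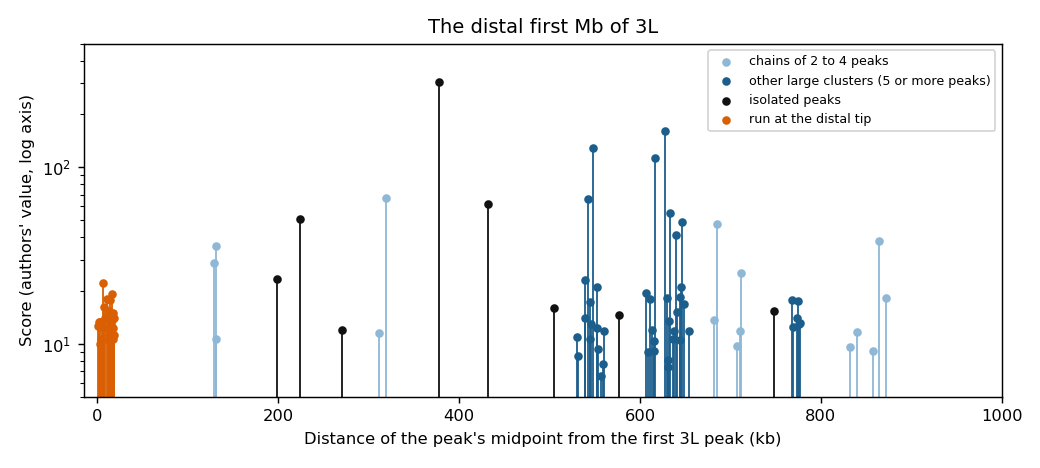
Score (log axis) of each of the 92 peaks in the first Mb of 3L against its distance from the first peak of the arm, coloured by the kind of chain. The run at the tip is flat, at 9.99 to 22.1, the strongest peak (304) stands alone, and the crowded stretch beyond 530 kb mixes scores from 6.60 to 160.

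The run at the tip consisted of even scores, with none above 22.1. Its first peak spanned 673 to 1208, with a score of 12.6, and its last spanned 19128 to 19658, with a score of 13.9. The lowest-scoring peak, at 2964 to 3164, had 9.99 and the minimum width of 201 bp, and the highest, at 5911 to 7025, had 22.1 and a width of 1115 bp. The median of the 25 scores was 13.25, near the 13.59 of the whole arm, and their SD over peaks 3.00. Among the other 531 peaks of 3L, 289 (54.4%) scored within the range of the run, 132 (24.9%) above it and 110 below it. The run therefore lacked both tails of the score distribution of the arm.

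Its peaks were packed to near continuity. They covered 73.4% of the 19.0 kb, and the gaps between them ran from 51 to 906 bp with a median of 110 bp, of which 10 of 24 were at most 100 bp. The 10 peaks in the outer 10 kb had a median width of 743.5 bp and the 15 farther in had 416 bp, at median scores of 13.25 and 13.59. The outer peaks were wider in the median while the scores were nearly level. Over the 25 peaks, width and score still rose together, with Spearman's rho of 0.66. Several scores recurred exactly. The 25 peaks had 18 distinct values, and 24 of them had a score that at least 1 other 3L peak also had, against 259 of all 556 (46.6%). The share over the arm includes scores above the range of the run, and no share was computed within that range. Recurring scores were not confined to the run. The most common on 3L, 13.94, belonged to 9 peaks, among them 21000802 to 21001482.

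Chains of peaks describe the crowding elsewhere on the arm. Peaks were joined where at most 10 kb lay between them, and 5 or more peaks joined in this way make a large cluster. Of all peaks on the arms, 49.3% lay in one. On 3L 282 peaks (50.7%, Wilson 95% interval 46.6 to 54.9%) lay in 27 large clusters that together spanned 590 kb, or 2.41% of the arm between its first and last peak. A further 163 lay in chains of 2 to 4, and 111 (19.96%, 16.9 to 23.5%) were isolated, close to the 19.8% of isolated peaks over all arms. The share in large clusters was likewise close to that of all arms. It was 23.7% with peaks within 1000 bp merged and 27.0% among the higher-scoring peaks of the list, so it depends on the splitting and on the many low peaks. Gaps of at most 100 bp made up 9.37% of the 555 gaps on 3L (52), against 7.61% on X, 6.33% on 2R, 5.09% on 3R and 4.19% on 2L, and against 15.4% (4 of 26) on chromosome 4. The run at the tip alone supplied 10 of the 52.

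Arms together had 54 clusters of 10 or more peaks, 10 of them on 3L. Of all 54, the run at the tip was the most densely packed, with 13.2 peaks per 10 kb against a median of 5.32, and had the largest covered share, 73.4% against a median of 32.1%. Next in both was the chromosome 4 cluster from 1264009 to 1277830, with 11.6 per 10 kb and 66.7% covered. Among smaller clusters, the 5 peaks of 3L from 8086563 to 8090082 were denser than the run, at 14.2 per 10 kb, with 66.1% covered. The highest score of the run was 1.67 times its median, a ratio that only 3 of the 54 undercut. In 8 of the 54 no peak reached a score of 25, and 3 of these 8 lay on 3L. Besides the run at the tip these were 5165926 to 5180361, with 10 peaks and a maximum of 18.1, and 8672108 to 8699550, with 17 peaks and a maximum of 22.8. These clusters were picked out by their own values, so the comparison is a description without a test.

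Of the 5 clusters on 3L with 15 or more peaks, 3 were led by a high and wide peak. The cluster from 530943 to 561401 had 15 peaks with a median score of 12.3. Its leading peak spanned 547182 to 551025, scored 128 and was 3844 bp wide, and the next highest, at 542804 to 544569, scored 65.7. The cluster from 606680 to 654911 had 23 peaks with a median of 15.1. It held 2 strong peaks, of which the wider spanned 625688 to 630595 with a score of 160 and the narrower, 738 bp wide, spanned 616454 to 617191 with 112. No peak was called in the 8.50 kb between them. Inward of the wider one lay further broad peaks, at 632636 to 636162 (3527 bp, score 54.9) and 639206 to 641764 (2559 bp, score 41.3). Of the 10 widest peaks on 3L, 4 lay in this pair of clusters.

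The largest cluster of the arm, from 3374172 to 3461861, reached over 87.7 kb and counted 37 peaks, in a window of 74 peaks between 3 and 4 Mb. Its median score was 13.03, and the leading peak, at 3416817 to 3419345, had 94.8 at a width of 2529 bp. Covered sequence made up 25.1% of the cluster, well below the share in the run at the tip. The 17 peaks of the cluster from 8672108 to 8699550 had a median score of 12.1 and a median width of 305 bp, and the highest, at 8691132 to 8692073, had 22.8. This cluster was near the run at the tip in its highest score, but its lowest was 7.42 against 9.99. Its peaks covered only 25.8% of its length. By contrast, the 8 peaks between 21000802 and 21020087, singled out after their values were seen, had the highest median score of the 27 large clusters, 24.2, without any peak above 42.8.

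**Figure D3:**
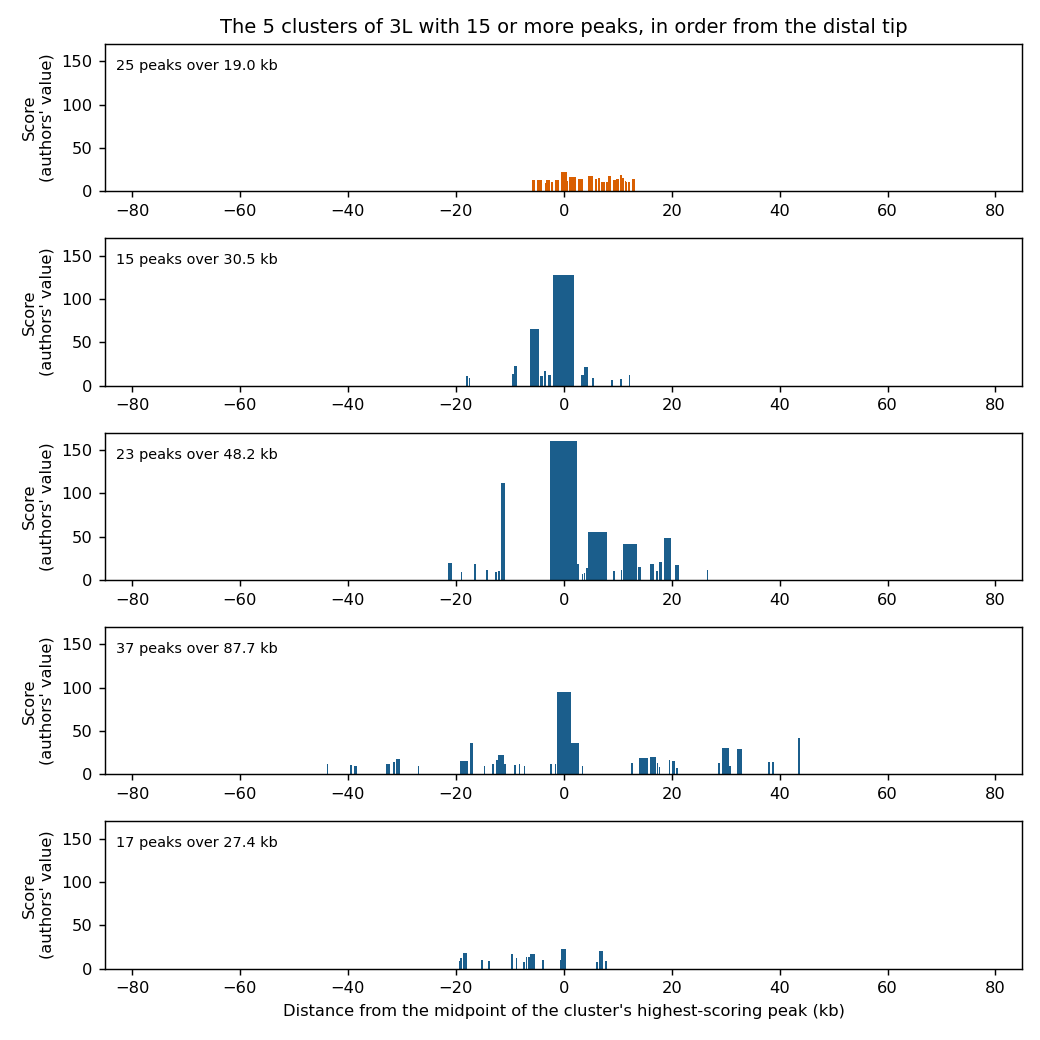
Each panel shows 1 of the 5 clusters of 3L with 15 or more peaks, with every peak drawn to its width (kb from the midpoint of the cluster's highest-scoring peak) and score on common axes. The run at the tip (orange) is flat and nearly continuous, 3 clusters are led by peaks scoring 94.8 to 160, and the last stays below 23.

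By the 10 kb rule the strong peaks of 3L were either isolated or chained. Isolated were 4 of the 12, against 35.1% of the 74 strong peaks over all arms. The highest of the whole list, at 377662 to 378766, scored 304 and was 1105 bp wide. Its nearest neighbours lay 57.7 kb on the distal and 53.7 kb on the proximal side and scored 67.3 and 61.8. The second isolated one, at 5763344 to 5764418, scored 133, with neighbours of 17.1 and 16.9 at 16.8 and 36.4 kb. The third, at 14355688 to 14357152, scored 128, and 230 and 106 kb around it were empty. The fourth, at 1177849 to 1178749, scored 125 with 74.8 and 128 kb empty on its sides. Each of the 4 was 901 to 1465 bp wide. The lack of a called peak within 10 kb is the rule by which they count as isolated. With peaks within 200 bp or within 1000 bp merged, 5 strong peaks were isolated. With cluster gaps of 5 kb the count was 4, and with 20 kb it was 3.

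The other 8 strong peaks had neighbours within 10 kb by the chaining rule. Most of these scored low, though the strong peaks of 160 and 112 neighboured each other. The highest of the 8, at 17995115 to 17997333, scored 188 over 2219 bp and was flanked on both sides by peaks of 15.75, at 170 and 204 bp. The peak at 14748902 to 14751128, with 110 over 2227 bp, had flanks of 11.6 and 9.09 at 50 and 99 bp. The peak at 4233364 to 4234699 scored 122, with flanks of 11.1 and 13.5 at 64 and 109 bp. Further strong peaks led the clusters at 19783977 to 19785422 (score 121) and 16044846 to 16046268 (score 116). In 7 of the 8 a further peak lay within 1 kb. Close neighbours were common on the arm, where 202 of the 555 gaps (36.4%) were at most 1 kb. The matching share of all chained peaks was not computed, so the count is no trait of strong peaks. The median score of the peaks within 10 kb ran from 10.3 to 15.8 among the 8, so the surroundings of a strong chained peak scored like the bulk of the arm. Just under the limit of 100 stood the isolated peak at 12602253 to 12602967 with 96.7, and just above it the chained one with 110.

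Strong chained peaks were the wider ones in the median, at 1832.5 bp against 1090 bp for the 4 isolated, but the ranges overlapped (738 to 4908 and 901 to 1465 bp). Among peaks scoring 50 or more, the 17 in large clusters had a median width of 1446 bp and the 15 isolated ones had 837 bp. On the other arms the same medians were 1501 bp (76 peaks) and 810 bp (61 peaks), so the order on 3L was that of the other arms. Width and score rose together on 3L, with Spearman's rho of 0.72 over the 556 peaks. This is a description across peaks of 1 list, in which both quantities depend on the same reads.

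**Figure D4:**
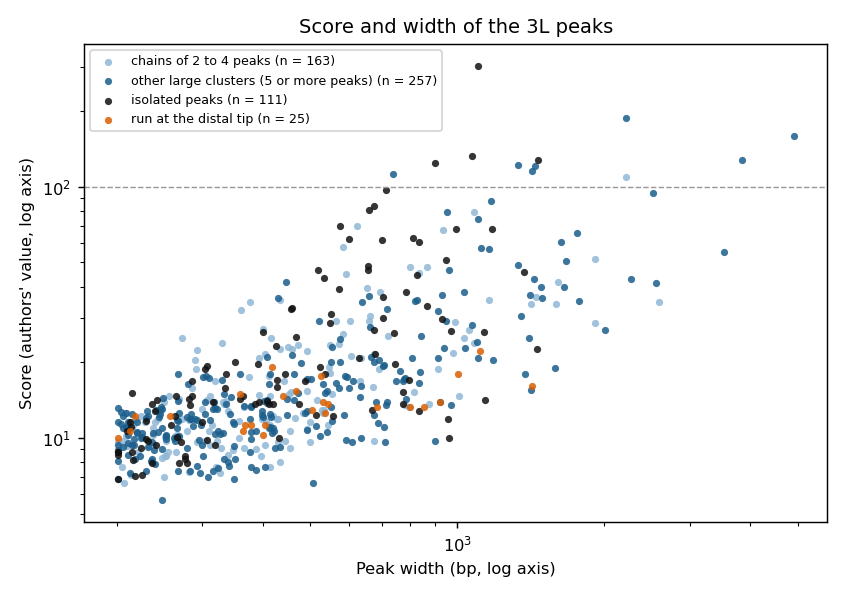
Score against width (log axes) for the 556 peaks of 3L, coloured by the kind of chain, with a dashed line at a score of 100. At high scores the isolated peaks (black) lie at 1465 bp or less, 8 of the 10 widest peaks belong to large clusters and the other 2 to chains of 3, and the run at the tip (orange) stays under 23 at widths up to 1424 bp.

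The 25 highest-scoring peaks of 3L had scores from 67.3 to 304. Isolated were 10 of them, 11 lay in large clusters and 4 in chains of 2 to 4, and 5 lay in the first Mb. After the 12 strong ones came 12602253 to 12602967 (score 96.7), 3416817 to 3419345 (94.8), 2823160 to 2824331 (88.1), 12460980 to 12461654 (83.6), 17480111 to 17480768 (80.9), 17563052 to 17564003 (79.6), 3225789 to 3226869 (79.5) and 3069746 to 3070848 (74.3). These were followed by 10849657 to 10850280 and 18752238 to 18752813, equal at 69.9, and by 3035116 to 3036108 (68.1), 2866836 to 2868012 (67.9) and 318983 to 319916 (67.3). Their widths ran from 576 to 4908 bp. None of the 25 lay between 5764418 and 10849657 or past 19785422, while the sparse stretch from 9 to 16 Mb held 5. The remaining ones of the 10 widest peaks were 4542669 to 4545270 (2602 bp, score 34.7), 21017818 to 21020087 (2270 bp, score 42.8) and 22815534 to 22817541 (2008 bp, score 26.9).

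Isolated and crowded peaks were also compared as groups. Isolated peaks had a median score of 15.75 (quartiles 11.6 and 30.6, 111 peaks) and those in large clusters had 12.9 (10.5 and 18.045, 282 peaks), with the chains of 2 to 4 between them at 13.5. Their widths were nearly level, with medians of 430 bp for isolated peaks and 409 bp in large clusters. The difference of -2.82 between large clusters and isolated peaks compares with -3.48 on X, -3.66 on 2L, -1.51 on 2R, -4.16 on 3R and -0.08 on chromosome 4. Without the run at the tip it was -2.90. When peaks within 1000 bp were merged it shrank to -0.435. Over the 24 whole windows of 3L, Spearman's rho of the count and the median score was -0.57, with the fuller windows having the lower medians. The points share 1 list and 1 score threshold, and no p is given.

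The arm was split at the middle of its span, position 12229309, into a distal and a proximal part. The distal part held 356 peaks, at a density of 29.1 per Mb (26.2 to 32.3 by the exact Poisson interval). The proximal part held 200, at 16.4 per Mb (14.2 to 18.8), so the ratio was 1.78. Leaving out the first Mb, the distal density was 23.5 per Mb (20.8 to 26.5), a ratio of 1.44. The proximal part had 10 of the 27 large clusters and 5 of the 12 strong peaks. Strong peaks made up 2.50% of its peaks (Wilson 95% interval 1.07 to 5.72%) and 1.97% of the distal ones (0.956 to 4.00%), so the proximal part was poorer in peaks with no detectable deficit of strong ones at these counts. Its median score was 14.045 against 13.285, and isolated peaks made up 24% (18.6 to 30.4%) against 17.7% (14.1 to 22%).

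The sparse stretch from 9 to 16 Mb contained no large cluster. Of its 51 peaks, 27 were isolated, which in part restates the low density by which the stretch was drawn. The median score of the 51 was 15.75. It included 2 strong peaks and the 2 longest stretches of the arm without a peak, 774 kb between 13221847 and 13995369 and 647 kb between 9671621 and 10318129. Proximal to it, the window from 17 to 18 Mb had 37 peaks and held the second strongest peak of the arm. The window from 22 to 23 Mb had 29 peaks with a median of 11.1, the lowest of the whole windows of 3L, and a maximum of 40.1.

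Towards the proximal end of the 3L sequence the peaks thinned out. The scaffold 3LHet, assigned to the heterochromatin of the same arm, is numbered apart, with 10 peaks, and is not included here. Past 23 Mb lay 8 peaks over the last stretch, 6 of them isolated, with scores from 9.89 to 45.9 and a median of 21.3. The third longest empty stretch, 569 kb between 23119889 and 23688596, lay here. The highest of these peaks spanned 23688596 to 23689968, was 1373 bp wide and scored 45.9, and the last peak of the arm spanned 24457480 to 24457945 with a score of 25.2. The 2 ends of the 3L sequence thus differed in make-up. At the tip 25 packed peaks of even score lay in 19.0 kb, and few scattered peaks lay at the proximal end. How many of the reads at either end align uniquely, and the copy number of these sequences in the line, were not measured in the values used here, and their part in this difference was not tested.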

How the data were processed

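The list is 1 deposited file of peak positions and scores for the whole study, which holds 2 ChIP and 2 input libraries. Each score was used as deposited by the authors, and which statistic it is is not given in the sources used here. MACS stands in the source column and FlyBase release 5 in the header, per the file headers. The submitters' processing notes list BWA, MACS2, CASAVA in versions 1.7.0.2 and 1.7.0.3, and the build BDGP5, with no role. For the score threshold, the use of input and the pooling of replicates, the method is likewise not given in the sources used here. A caller that splits enrichment more finely gives more, closer peaks, so merged lists were tried.

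Positions were read as 1-based. Windows and parts of the arm were counted by peak midpoints, with Python 3.11.15, pandas 2.3.3, numpy 2.4.6 and scipy 1.17.1, and plotted with matplotlib 3.10.9. No test was run, as there is no value per library. Shares have Wilson and densities exact Poisson 95% intervals. Chaining and merging were checked on a simulated list. Named were the 25 highest-scoring and 10 widest peaks, clusters of 15 or more peaks, isolated strong peaks, the ends and extremes of the run at the tip and the 3 longest empty stretches. Members, lists and rules were chosen with earlier results of these data known. No genome of release 5 was used, so no sequence is shown.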

Additional observations from a re-analysis of the deposited data

Results flagged for a closer look

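The scaffold 3LHet, which is assigned to the heterochromatin of the same arm and is not part of the 556 peaks, held 10 peaks, where no comparison used it. Their scores ran from 12.1 to 60.6 with a median of 28.0, and their widths from 221 to 599 bp.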

How the results depend on the processing

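Of 35 values recomputed under alternatives, 19 stayed within 1.5 times of a count or within an interval on the value that covers counting error, and 16 moved. None changed sign, but only the difference between large clusters and isolated peaks could, as the other measures cannot be negative. With the upper part of the whole list by score, 3L had 248 peaks, 41 in the first Mb, a median spacing of midpoints of 24151.5 bp against 4095 bp, 27.0% in large clusters, a median score of 23.2 and a difference of -7.23 between large clusters and isolated peaks. Fewer peaks and higher scores follow from the restriction itself. With peaks within 1000 bp merged the values were 354 peaks, 41 in the first Mb, 17531.5 bp, 23.7% and a median score of 16.015, and the difference between large clusters and isolated peaks, -2.82 as reported, was -0.435, far smaller though within its interval. With 200 bp the spacing was 7609.75 bp and the share 43.7%. The share in large clusters was 35.8% with gaps of at most 5 kb, 62.4% with 20 kb and 30.6% for clusters of 10 or more peaks. The rank of the first Mb among windows was chosen as a measure with the data already known. The ratio of the distal to the proximal density lay between 1.51 and 1.78 in these settings, and was 1.44 without the first Mb. No paired analysis was possible because libraries have no values of their own in the list, and no replicate could be left out.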
